A study of Mus musculus with 4 samples.

Results

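The genes described here are 42 genes of mitosis and the G2/M phase of the cell cycle, taken by symbol from the 32544 genes counted in single cells of mouse bone marrow. All 42 had at least 1 unique molecular identifier (UMI, which marks 1 captured transcript) in the kept cells, as did 22201 of all genes. The cells were nucleated marrow cells collected by flow sorting at 10 weeks of age, and a droplet method (10x Genomics) counted the 3' ends of their transcripts. There were 2 libraries labelled YAP1 heterozygote and 2 labelled WT. YAP1 is a transcriptional co-activator of the Hippo pathway. How the allele was altered, whether a promoter or Cre acts on it, the gates of the sort and how many animals a library pools are not stated in the labels.

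The libraries held between 112806900 and 119855112 UMIs in 11346 to 14352 barcodes, and between 10566 and 13155 cells of each were kept after limits on depth and mitochondrial share and removal of called doublets. Any 2 libraries shared between 27 and 62 barcodes. Yap1, the gene named in the labels, had 0 and 6 UMIs in YAP1 heterozygote replicates 1 and 2, against 6 and 7 UMIs in WT replicates 1 and 2. A 3' tag does not separate alleles, and these counts check no genotype. The replicate 1 libraries of both groups expressed the Y-linked gene Ddx3y and the replicate 2 libraries expressed Xist, so the spread within a group holds a difference between animals and sexes. WT replicate 1 stood apart from the other libraries in 1 cluster of mature neutrophil-like cells led by Acod1, Cxcl2 and Ccrl2, of which it held 1409 of 1594 cells. Results that rest on WT replicate 1 are given without it as well.

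Entry into mitosis is driven by cyclin A and cyclin B bound to the kinase Cdk1, helped by the Polo-like and Aurora kinases. The kinetochore, the chromosomal passenger complex and the spindle then align the chromosomes, the anaphase-promoting complex destroys cyclin B and securin, and a central spindle with an actomyosin ring splits the cell. Megakaryocytes, the cells that shed platelets, leave this sequence late: they replicate their DNA and enter mitosis repeatedly but do not divide the cell, a process called endomitosis that makes them polyploid. Most of these genes are transcribed together late in the cell cycle through the CHR element (cell cycle genes homology region, bound by the MuvB complex with B-MYB and FOXM1) and CCAAT boxes (bound by NF-Y).

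The promoters are shown because all 42 genes are described below as a group that is high in the same cells. RefSeq promoter sequence (GRCm38.p6, 250 bases before to 50 bases after the start) was at hand for 35 of the 42 genes. Searched on both strands, TTTGAA or TTCGAA stood in 28 of these 35 promoters (80%), against 19.4% of 27025 promoters in the same table. TTTGAA alone stood in 74.3% of the members' promoters, against 18.1% of all promoters. CCAAT stood in 77.1% of the members' promoters, against 37.9% of all, and at least 2 copies in 54.3%, against 12.2% of all. Both kinds of motif stood in the same window in 24 of 35 member promoters (68.6%), against 7.70% of all. The 150 bases before the start are printed for 5 genes on which the results below turn or which define the group: Cdk1 and Cdc20 as core mitotic genes, Ckap2l and Ect2 for their levels in megakaryocyte-like cells, and Cks2 for its levels by genotype. Capitals mark TTTGAA and CCAAT in either orientation (TTCAAA and ATTGG on the other strand). No TTTGAA or TTCGAA is in the printed Cks2 stretch.
Cdk1 (chr10:69352913-69353062, minus strand): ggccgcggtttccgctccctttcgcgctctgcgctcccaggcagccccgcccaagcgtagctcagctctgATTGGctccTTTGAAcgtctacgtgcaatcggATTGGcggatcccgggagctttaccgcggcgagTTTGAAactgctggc
Cdc20 (chr4:118437344-118437493, minus strand): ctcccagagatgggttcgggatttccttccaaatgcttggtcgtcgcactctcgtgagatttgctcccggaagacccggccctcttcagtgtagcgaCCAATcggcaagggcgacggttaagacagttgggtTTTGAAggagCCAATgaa
Ckap2l (chr2:129297213-129297362, minus strand): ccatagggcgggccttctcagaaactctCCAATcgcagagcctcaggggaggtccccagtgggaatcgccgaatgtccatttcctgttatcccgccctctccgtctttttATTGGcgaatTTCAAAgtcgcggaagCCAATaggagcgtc
Ect2 (chr3:27153879-27154028, minus strand): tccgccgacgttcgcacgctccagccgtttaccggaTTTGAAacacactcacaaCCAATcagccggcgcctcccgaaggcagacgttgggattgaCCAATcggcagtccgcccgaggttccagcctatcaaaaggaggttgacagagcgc
Cks2 (chr13:51645082-51645231, plus strand): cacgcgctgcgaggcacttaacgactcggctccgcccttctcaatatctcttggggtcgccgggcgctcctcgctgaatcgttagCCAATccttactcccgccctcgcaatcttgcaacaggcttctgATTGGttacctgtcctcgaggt

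Over all kept cells, the members that contributed most UMIs were Mki67, Cks2, Top2a, Smc4 and Ube2c. Levels are given as UMIs per 1000000 UMIs of the same cells (CPM). Each captured transcript counts once whatever its length, so no length correction was made. The values follow the roles of the genes. Among the cyclins, Cdk1 and its small CKS subunits, Cks2 had 370.3 and 367 CPM in the YAP1 heterozygote libraries, against 439 and 416 CPM in the WT libraries. Cks1b, the other CKS subunit, had 157 and 153 CPM in YAP1 heterozygote and 147 and 157 CPM in WT. The 2 groups thus did not overlap for Cks2 and overlapped for Cks1b. Among the mitotic kinases, Plk1, which acts from mitotic entry to exit, had 39.2 and 42.2 CPM in YAP1 heterozygote and 34.5 and 41.6 CPM in WT. Aurka, the centrosomal Aurora kinase, had 34.5 and 38.1 CPM in YAP1 heterozygote and 31.9 and 39.7 CPM in WT. The kinases were the least abundant role, at 2.65% to 2.90% of the members' UMIs.

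Of the 2 genes of the anaphase-promoting complex, Ube2c, its ubiquitin-conjugating enzyme, had 270.5 and 256 CPM in YAP1 heterozygote and 233 and 273 CPM in WT. Cdc20, its mitotic activator, had 59.4 and 60.2 CPM in YAP1 heterozygote and 54.1 and 61.3 CPM in WT. At the centromere, Cenpa, the centromeric histone H3, had 165 and 171 CPM in YAP1 heterozygote and 154 and 183 CPM in WT. In all 3 cases WT replicate 1 was the lowest of the 4 libraries and the groups overlapped. Cenpf, an outer kinetochore protein, had 142 and 144 CPM in YAP1 heterozygote and 128 and 148 CPM in WT. In the chromosomal passenger complex, which corrects attachments and then marks the midzone, Birc5 (survivin) had 189.9 and 198 CPM in YAP1 heterozygote and 172 and 208 CPM in WT. Cdca8 (borealin) of the same complex had 124 and 128 CPM in YAP1 heterozygote and 112 and 131 CPM in WT. These genes also had their lowest value in WT replicate 1.

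Genes of chromosome structure were the largest role, with 26.2% to 27.2% of the members' UMIs. Mki67, which coats mitotic chromosomes, had 493 and 496 CPM in YAP1 heterozygote and 420.4 and 505 CPM in WT. Top2a, the topoisomerase that untangles sister chromatids, had 384 and 374 CPM in YAP1 heterozygote and 356 and 384 CPM in WT. On the spindle, Nusap1, which bundles microtubules at the chromosomes, had 115 and 112 CPM in YAP1 heterozygote and 101.002 and 126 CPM in WT. The groups overlapped for all 3 genes. Kif11, the kinesin that pushes the spindle poles apart, had 97.8 and 94.0 CPM in YAP1 heterozygote and 96.2 and 97.0 CPM in WT. Of the cytokinesis genes, Prc1, which crosslinks the central spindle, had 104 and 111 CPM in YAP1 heterozygote and 94.3 and 109.7 CPM in WT. Racgap1, the GTPase-activating subunit of centralspindlin, had 67.3 and 61.6 CPM in YAP1 heterozygote and 74.4 and 65.8 CPM in WT. Racgap1 and Cks2 were thus higher in WT replicate 1 than in any other library, unlike the other genes named so far except Kif11, for which WT replicate 1 lay inside the range of the rest. As means of the 4 libraries, the remaining members lay between 11.0 CPM for Cdc25c, the phosphatase that activates Cdk1, and 266 CPM for Smc4, a condensin subunit.

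To count dividing cells at 1 depth, each cell with at least 2000 UMIs was thinned to 2000 UMIs, and a cell in which at least 3 different members still had a UMI was called dividing. Of 47467 kept cells, 44317 were deep enough and 3150 were left out. By this count 11078 cells (25.0%) were dividing. Just below the limit, 4527 cells had exactly 2 members, and just above it 1519 cells had exactly 3. The most members seen in 1 thinned cell was 32. Cells were grouped into classes by clustering without the cell cycle genes, and a class was named "-like" from marker genes. A class against another is thus a description and carries no test.

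Erythroid progenitor-like cells were nearly all called dividing, followed by megakaryocyte-like cells and neutrophil precursor-like cells. In erythroid progenitor-like cells 99.1% and 99.3% were dividing in YAP1 heterozygote, against 94.4% and 99.3% in WT. In megakaryocyte-like cells 59.2% and 55.8% were called dividing in YAP1 heterozygote, against 58.0% and 64.1% in WT. The call rests on RNA of mitotic genes and does not tell division from endomitosis in this class. In neutrophil precursor-like cells the shares were 54.3% and 51.3% in YAP1 heterozygote and 58.1% and 52.1% in WT. The ranges of megakaryocyte-like and neutrophil precursor-like cells overlapped, while erythroid progenitor-like cells lay above both in every library. Neutrophil precursor-like cells were the most numerous of these classes and made up 46.0% of all dividing cells.

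HSPC-like cells (haematopoietic stem and progenitor cells) had 39.1% and 36.7% dividing in YAP1 heterozygote, against 38.8% and 39.7% in WT. B cell precursor-like cells had 36.7% and 36.2% dividing in YAP1 heterozygote, against 38.1% and 38.6% in WT. Basophil or mast cell-like cells had 32.8% and 34.3% dividing in YAP1 heterozygote, against 19.2% and 29.5% in WT. Some neighbours in this part of the order were not separated. The ranges of HSPC-like and B cell precursor-like cells overlapped, and so did those of basophil or mast cell-like and monocyte-like cells. B cell precursor-like cells, at 36.2% or more, lay above basophil or mast cell-like cells, at 34.3% or less. Monocyte-like cells had 28.8% and 30.2% dividing in YAP1 heterozygote, against 34.4% and 27.6% in WT. Conventional dendritic cell-like cells had 25.4% and 25.2% dividing in YAP1 heterozygote, against 38.5% and 25.9% in WT. WT replicate 1 had the highest share of dividing cells in both of these classes.

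Mature cells had the lowest shares. Macrophage-like cells had 18.6% and 12.2% dividing in YAP1 heterozygote, against 3.57% and 12.5% in WT, on only 16 to 98 cells of a library at this depth. Plasmacytoid dendritic cell-like cells had 8.86% and 9.83% dividing in YAP1 heterozygote, against 11.0% and 11.3% in WT. T cell-like cells had 10.4% and 7.39% dividing in YAP1 heterozygote, against 9.43% and 7.33% in WT. Plasma cell-like cells, with 20 to 74 cells of a library, had 1 of 24 and 0 of 36 cells dividing in YAP1 heterozygote, against 3 of 20 and 8 of 74 in WT. NK cell or ILC-like cells (natural killer and innate lymphoid cells) had 4.49% and 5.31% dividing in YAP1 heterozygote, against 12.8% and 4.39% in WT. B cell-like cells had 3.89% and 3.66% dividing in YAP1 heterozygote, against 6.93% and 3.27% in WT. Mature neutrophil-like cells had 1.55% and 2.13% in YAP1 heterozygote and 2.93% and 1.92% in WT, on a class that is known not to divide. The median depths of that class were 4003 to 4890 UMIs. What its calls come from, such as free RNA or doublets in droplet data, was not tested. The class had means of 175 CPM for Cks2, 47.2 CPM for Smc4, 33.2 CPM for Cenpa and 32.2 CPM for Kif23. Its other members lay between 0.337 CPM for Cdc25c and 11.5 CPM for Mki67. A share at or below that of this class is not read as division. This limit may not hold for other classes. Cks2 averaged 1408 CPM in the basophil or mast cell-like class, and Smc4 averaged 314 CPM in T cell-like cells. The share of B cell-like cells was above that of mature neutrophil-like cells by only a few percentage points in each library.

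**Figure D1:**
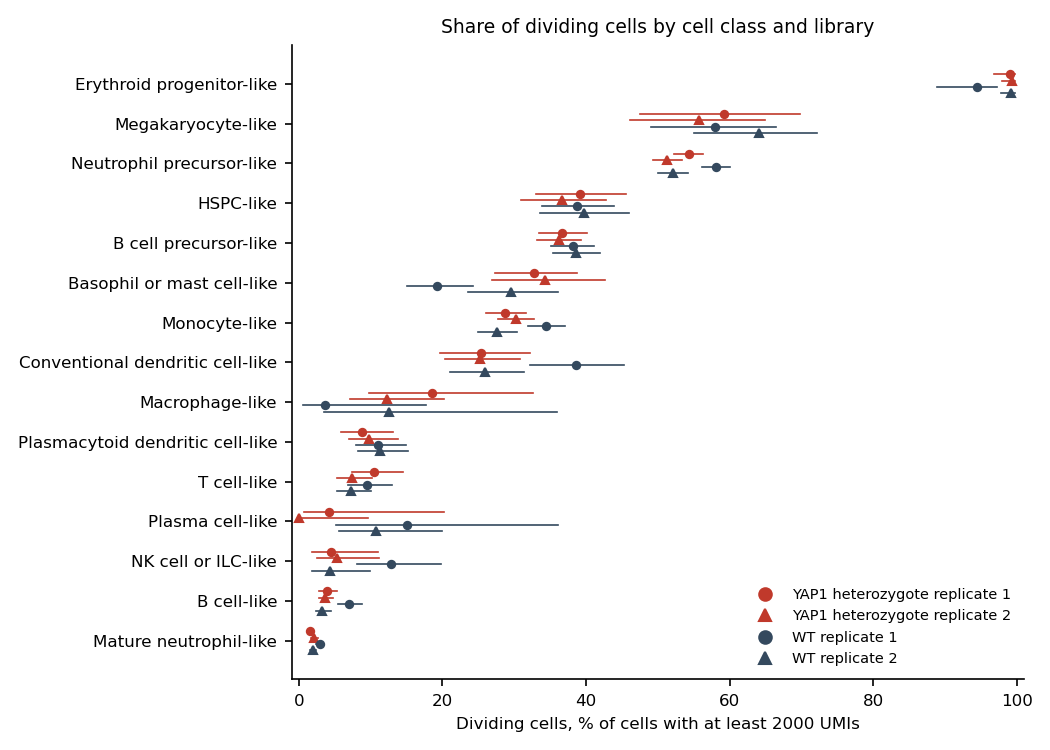
Share of dividing cells (x axis, % of cells with at least 2000 UMIs) in each of 15 cell classes (y axis), with 1 point per library and its Wilson 95% interval, which covers counting error only. Erythroid progenitor-like cells lie between 94.4% and 99.3%, megakaryocyte-like cells between 55.8% and 64.1%, and mature neutrophil-like cells between 1.55% and 2.93%.

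Within classes, the dividing cells were gathered in some clusters. In the erythroid progenitor-like class, the median share over libraries was 97.7% in the cluster led by Car1. Among neutrophil precursor-like clusters it was 93.3% in the one led by Fcnb and Cdc25a, 85.8% in the one led by Elane and Prtn3, 83.7% in the one led by Orm1 and Fcnb, 82.1% in the one led by Mpo and Ctsg, 60.3% in the one led by Orm1 and Chil3, and 2.99% in the one led by AA467197 and Ltf. Among B cell precursor-like clusters it was 80.3% in the one led by Myl4 and Rsph9, 39.6% in the one led by Vpreb1 and Igll1, and 7.68% in the one led by Rag1. Camp, another secondary granule gene, was among the leading genes of the Ltf cluster and of clusters with 60.3% to 93.3%, so Camp alone does not set these clusters apart. An order of the shares by granule genes was not tested. Among monocyte-like clusters the median share was 77.6% in the one led by Fn1 and F13a1, 7.74% in the one led by Vcan, and 5.79% in the one led by Ace. The megakaryocyte-like and HSPC-like classes were 1 cluster each.

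The summed level of the members was not in the order of the dividing shares, and 2 classes held the highest level of most members. The sum was 7633 to 8402 CPM in B cell precursor-like cells, beside 7993 to 9224 CPM in erythroid progenitor-like cells, against 4816 to 6035 CPM in megakaryocyte-like and 4993 to 5213 CPM in neutrophil precursor-like cells, which had higher dividing shares than B cell precursor-like cells. HSPC-like cells had 3579 to 3769 CPM, below the 4373 to 4809 CPM of monocyte-like cells. By mean CPM of the 4 libraries, 22 members were highest in erythroid progenitor-like cells and 15 in B cell precursor-like cells. Cks2 and Kif20b were highest in basophil or mast cell-like cells, Ckap2l in megakaryocyte-like cells, Racgap1 in monocyte-like cells and Kif23 in conventional dendritic cell-like cells. Mki67 was the most abundant member in erythroid progenitor-like cells, at 1367 and 1408 CPM in YAP1 heterozygote and 1249.8 and 1427 CPM in WT. It also led in B cell precursor-like cells, at 1078 and 869 CPM in YAP1 heterozygote and 884 and 958 CPM in WT. Mki67 led as well in megakaryocyte-like cells, whose values are given below. In monocyte-like cells it had 516 and 505 CPM in YAP1 heterozygote and 552 and 478 CPM in WT. In conventional dendritic cell-like cells it had 505 and 374 CPM in YAP1 heterozygote and 588 and 477 CPM in WT. In plasma cell-like cells Mki67 led at a far lower level, at 52.9 and 25.8 CPM in YAP1 heterozygote and 223 and 109.5 CPM in WT. Top2a led in HSPC-like cells, at 409.8 and 419.6 CPM in YAP1 heterozygote and 378 and 403 CPM in WT, and in plasmacytoid dendritic cell-like cells, at 159.7 and 158 CPM in YAP1 heterozygote and 179.8 and 259 CPM in WT.

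Cks2 led in classes with many and with few dividing cells. It was the most abundant member in neutrophil precursor-like cells, at 498 and 494 CPM in YAP1 heterozygote and 571 and 563 CPM in WT. It also led in mature neutrophil-like cells, at 134 and 155 CPM in YAP1 heterozygote and 229.8 and 183 CPM in WT, and in basophil or mast cell-like cells, described further below. In macrophage-like cells it had 229.7 and 172 CPM in YAP1 heterozygote and 263 and 98.6 CPM in WT, so the groups overlapped. Smc4 led in T cell-like cells, at 365 and 282 CPM in YAP1 heterozygote and 296 and 313 CPM in WT. It also led in NK cell or ILC-like cells, at 136 and 165 CPM in YAP1 heterozygote and 244 and 126 CPM in WT. Cenpa led in B cell-like cells, at 92.0 and 91.7 CPM in YAP1 heterozygote and 149.6 and 106 CPM in WT. The leading members of T cell-like and B cell-like cells were thus not those of the proliferating classes.

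Across the 15 classes, the correlation of each member with the mean of the other members on the log2(CPM + 1) scale ran from 0.757 to 0.998 (Pearson's r, a description over classes that share 4 libraries). Nusap1 was at the top with 0.998. At the lower end were Cks2 with 0.757, Kif23 with 0.780, Racgap1 with 0.826, Ect2 with 0.835, Smc4 with 0.853 and Cenpa with 0.867. Of 11059 genes ranked by the same measure, the 5 outside the members with the most similar pattern were Incenp (0.994), Bub1b (0.992), Kif15 (0.991), Kif4 (0.990) and Shcbp1 (0.990). The first 4 of these were on a list of other mitosis genes.

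**Figure D2:**
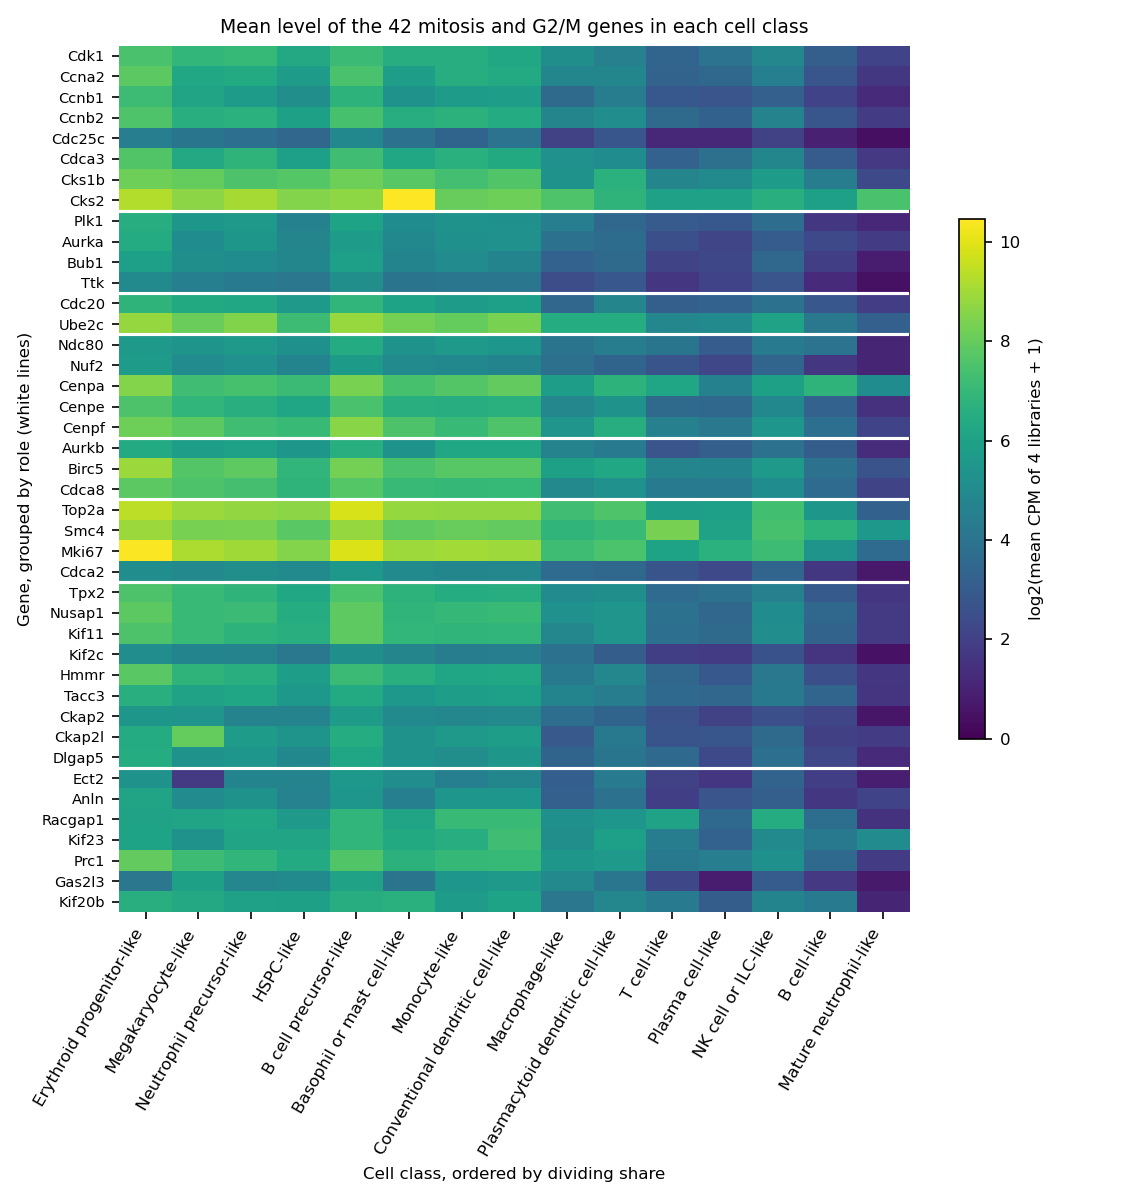
Mean level of the 42 genes (rows, grouped by role) in 15 cell classes (columns, ordered by dividing share), as log2(mean CPM of 4 libraries + 1) in colour. Most rows are brightest in erythroid progenitor-like and B cell precursor-like cells, while Cks2 is brightest in basophil or mast cell-like cells, Ckap2l stands out in megakaryocyte-like cells and Ect2 is dark there.

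Megakaryocyte-like cells numbered 75 and 111 in YAP1 heterozygote and 120 in each WT library. The label held against its markers: Pf4, a platelet chemokine, had 6993 and 9201 CPM in YAP1 heterozygote and 7563 and 10290.4 CPM in WT, and at most 48.8 CPM in 4 other classes with many dividing cells (erythroid progenitor-like, neutrophil precursor-like, HSPC-like and B cell precursor-like). Itga2b, the platelet integrin subunit, had 634 to 733 CPM, and at most 68.1 CPM in those 4 classes. Car1, an erythroid marker, had 1.77 to 4.44 CPM and Elane, a neutrophil precursor marker, 11.9 to 26.0 CPM. S100a9, a mature neutrophil marker, had 1725 and 3547 CPM in YAP1 heterozygote and 6091 and 1602 CPM in WT, and was highest in WT replicate 1. DNA content was not measured, so ploidy cannot be read from these files.

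Ect2 was almost absent from megakaryocyte-like cells and Ckap2l was several times higher there than in other dividing classes, while most members lay between those classes. Ect2 is the exchange factor that switches on RhoA at the cell equator to start the contractile ring. It had 0.625 and 4.15 CPM in YAP1 heterozygote (1 and 9 UMIs) and 3.53 and 1.48 CPM in WT (8 and 4 UMIs). In the other dividing classes it had 38.2 to 40.9 CPM in erythroid progenitor-like cells, 23.9 to 27.1 CPM in neutrophil precursor-like cells, 23.3 to 26.3 CPM in HSPC-like cells and 43.2 to 53.2 CPM in B cell precursor-like cells. The ranges did not touch in any library. The mean of megakaryocyte-like cells was lower than the mean of the 4 classes by a log2 ratio of -3.80. Ect2 lies at chr3:27097222-27153878 on the minus strand (GRCm38), and its promoter stretch printed above holds 1 TTTGAA and 2 CCAAT.

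Kif23, the motor subunit of centralspindlin, which brings Ect2 to the midzone, was also lowest in megakaryocyte-like cells by CPM. It had 35.6 and 30.4 CPM in YAP1 heterozygote and 42.8 and 48.5 CPM in WT, against 60.3 to 72.1 CPM in erythroid progenitor-like, 65.8 to 71.1 CPM in neutrophil precursor-like, 61.4 to 77.7 CPM in HSPC-like and 108 to 129.8 CPM in B cell precursor-like cells. The log2 ratio to the mean of these classes was -1.02. Racgap1, the other centralspindlin subunit, had 66.8 and 67.3 CPM in YAP1 heterozygote and 61.8 and 77.7 CPM in WT, within the range of the other classes, which ran between 45.3 CPM in HSPC-like and 128 CPM in B cell precursor-like cells. The 2 partners in centralspindlin thus differed in this comparison.

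The other cytokinesis genes lay within or near the range of the other classes. Prc1 had 141 and 154 CPM in YAP1 heterozygote and 136 and 139 CPM in WT, between neutrophil precursor-like cells at 111 to 123 CPM and B cell precursor-like cells at 184 to 213 CPM. Gas2l3, which links actin and microtubules late in division, had 57.5 and 52.5 CPM in YAP1 heterozygote and 62.2 and 73.7 CPM in WT, close to the 59.9 to 66.8 CPM of B cell precursor-like cells and above the 13.2 to 35.4 CPM of the other 3 classes. Anln, the ring scaffold anillin, had 30.6 and 36.0 CPM in YAP1 heterozygote and 23.8 and 39.2 CPM in WT, against 20.6 to 29.2 CPM in HSPC-like, 36.1 to 42.7 CPM in neutrophil precursor-like, 38.6 to 55.9 CPM in B cell precursor-like and 63.6 to 74.4 CPM in erythroid progenitor-like cells. Kif20b, a midzone kinesin, had 73.1 and 77.9 CPM in YAP1 heterozygote and 77.2 and 85.2 CPM in WT. Together the 7 cytokinesis genes held 7.63% to 8.46% of the members' UMIs in megakaryocyte-like cells, against 6.60% to 9.53% in the other 4 classes.

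Ckap2l, a spindle protein needed for chromosome segregation in neural progenitors of mice, had the opposite pattern to Ect2. It had 227 and 257 CPM in YAP1 heterozygote and 216 and 312 CPM in WT, on 2255 UMIs in all. It had 81.6 to 91.2 CPM in erythroid progenitor-like, 51.3 to 55.4 CPM in neutrophil precursor-like, 37.1 to 46.7 CPM in HSPC-like and 83.3 to 94.1 CPM in B cell precursor-like cells. Every megakaryocyte-like value was thus more than double the highest value elsewhere, and the log2 ratio to the mean of the 4 classes was 1.91. Ckap2l lies at chr2:129268210-129297212 on the minus strand. Its opposite-strand neighbour Gm14024, which overlaps its end, had 0 UMIs in megakaryocyte-like cells, and Il1a, the next gene upstream on the same strand, had 0.883 to 2.22 CPM. Slc20a1, a phosphate transporter gene nearby on the other strand, was also higher in megakaryocyte-like cells, at 115.6 and 108 CPM in YAP1 heterozygote and 115.2 and 84.0 CPM in WT, against 30.9 to 67.0 CPM in the 4 other classes. With Ckap2l, the 9 spindle genes held 16.3% to 18.2% of the members' UMIs in megakaryocyte-like cells, against 12.8% to 14.4% in the other classes.

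**Figure D3:**
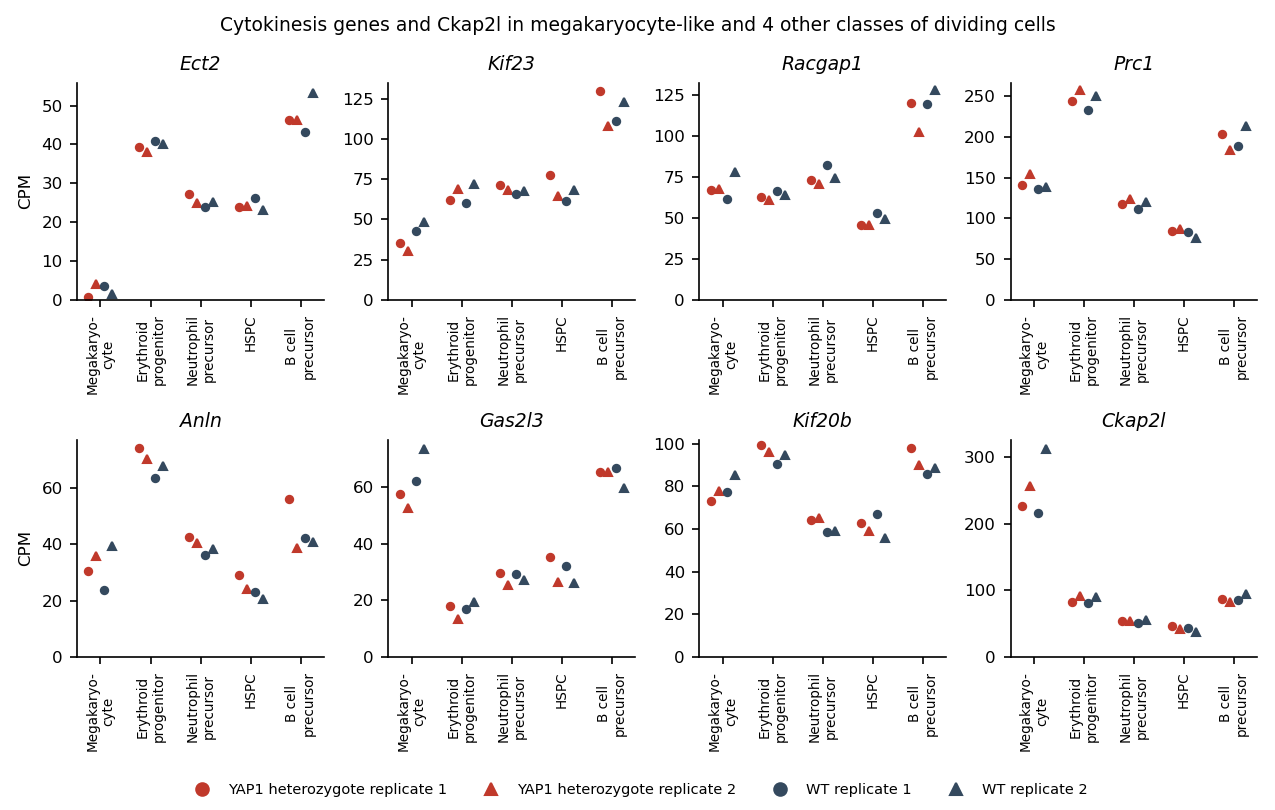
CPM (y axis, from 0, own scale in each panel) of the 7 cytokinesis genes and Ckap2l in megakaryocyte-like cells and 4 other classes (x axis), with 1 point per library. Ect2 stays at or below 4.15 CPM in megakaryocyte-like cells and Ckap2l at or above 216 CPM, while Racgap1, Prc1, Anln and Kif20b lie within the spread of the other classes and Gas2l3 reaches 73.7 CPM in WT replicate 2, above the 66.8 CPM that is highest elsewhere.

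In all, 2 of the 42 members (Ect2 and Kif23) were below and 1 (Ckap2l) was above every library of the 4 other classes, and 39 lay between. Among 9615 genes with at least 10 CPM in 1 of these classes, 1.07% were below and 7.51% above in the same sense. Counted per 1000 member UMIs, which removes the level of the whole group, Ect2 and Cenpa were below and Ckap2l, Gas2l3, Tpx2 and Cdca8 above. By that measure Kif23 was no longer below, at 5.49 to 8.89, against 7.18 to 7.81 in erythroid progenitor-like cells. The levels were then read in dividing cells of each class alone. Those cells were called by the same members, Ect2 and Ckap2l among them, so these values are no separate support. Ect2 had 3.64 CPM in 244 dividing megakaryocyte-like cells, against 34.7 CPM in neutrophil precursor-like, 39.7 CPM in erythroid progenitor-like, 41.3 CPM in HSPC-like and 71.5 CPM in B cell precursor-like cells. Ckap2l had 344 CPM in dividing megakaryocyte-like cells, against 74.3 to 135 CPM in the other 4 classes. Kif23 (59.2 CPM) and Cks2 (527 CPM) were also lowest there, while Cks2 differed little from HSPC-like cells (529 CPM).

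The upstream genes of mitosis were all present in megakaryocyte-like cells. Mki67 had 545 and 621 CPM in YAP1 heterozygote and 509 and 609 CPM in WT. Top2a had 463 and 527 CPM in YAP1 heterozygote and 415 and 478 CPM in WT. Cks2 had 368 and 395 CPM in YAP1 heterozygote and 401 and 426 CPM in WT, and was below WT in both YAP1 heterozygote libraries. Cks1b had 230.5 and 242 CPM in YAP1 heterozygote and 235 and 301 CPM in WT. Ube2c had 273 and 259 CPM in YAP1 heterozygote and 233 and 312 CPM in WT. Cdc20 had 82.4 and 78.8 CPM in YAP1 heterozygote and 66.6 and 98.5 CPM in WT. Of these 6 genes, Cks2 was the one whose groups did not overlap. Cenpf had 179 and 254 CPM in YAP1 heterozygote and 197 and 276 CPM in WT, and Cenpa 127 and 148 CPM in YAP1 heterozygote and 131 and 191 CPM in WT. Birc5 had 194.3 and 200.03 CPM in YAP1 heterozygote and 162 and 239 CPM in WT, and Cdca8 169 and 195 CPM in YAP1 heterozygote and 158 and 213 CPM in WT. Plk1 had 46.2 and 43.3 CPM in YAP1 heterozygote and 42.8 and 47.0 CPM in WT, and Bub1, a checkpoint kinase, 35.0 and 32.7 CPM in YAP1 heterozygote and 31.3 and 45.9 CPM in WT. In each of the last 6 genes, the WT libraries took in the YAP1 heterozygote values or overlapped them. Nusap1 had 137 and 136 CPM in YAP1 heterozygote and 117 and 147 CPM in WT, with the same overlap. Apart from Ect2, the remaining members lay between 15.7 CPM for Cdc25c and 321 CPM for Smc4 as means of the 4 libraries.

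Deeper megakaryocyte-like cells were more often called dividing even after thinning. With the cells of each library split into 3 equal parts by UMI count, 30% to 48.6% were dividing in the lowest part, 55% to 70% in the middle part and 68% to 82.5% in the highest part. Pf4 was at 4397 to 5582 CPM in the lowest part and 8698 to 14318.8 CPM in the highest. Ppbp, another platelet chemokine, had 171 and 402 CPM in the lowest part and 12.2 and 67.4 CPM in the highest part of YAP1 heterozygote, and 59.2 and 44.3 CPM in the lowest and 20.9 and 225 CPM in the highest part of WT. The 2 markers thus went opposite ways in 3 of 4 libraries. The 244 dividing megakaryocyte-like cells had 9807 CPM of Pf4, against 6515 CPM in the 167 that were not dividing, and the 10 megakaryocyte markers together, of which Pf4 made up most, had 11451.6 CPM, against 7988 CPM. The 10 mature neutrophil markers also moved with the call, at 7283 CPM in dividing cells, against 4473 CPM in the others. By library the neutrophil list had 3121 and 6994 CPM in dividing cells of YAP1 heterozygote and 14942.6 and 3672 CPM in those of WT, against 3604 and 6315 CPM in the other cells of YAP1 heterozygote and 5982 and 1691 CPM in those of WT. In 3 of 4 libraries it was thus higher in the dividing cells, and its part in the result was not tested.

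The comparison of YAP1 heterozygote with WT asks whether mitotic genes differ by genotype within a class of cells. No member was called in any of 15 classes or over all cells by edgeR's quasi-likelihood test on UMI counts summed per library and class (Benjamini-Hochberg adjusted over all tested genes of a class). Over the classes this made 537 tests of a member, of which 45 (8.38%) had an unadjusted p under 0.05, against 4.88% of all gene tests. DESeq2 called 1 of them, Cks2 in the basophil or mast cell-like class. With the replicate number as a block, edgeR did call members, Cks2 in the most classes, as given under the dependence on processing. By role the unadjusted share ran between 2.33% for the mitotic kinases and 14.3% for chromosome structure. Most of the 45 tests with an unadjusted p under 0.05 came from basophil or mast cell-like and plasma cell-like cells. The counts and limits of those classes are given below. The shares over all classes and by role are thus not read as a general excess among the members. The count of calls by edgeR rests on single libraries. Of the YAP1 heterozygote libraries, leaving out replicate 1 gave 16 calls and leaving out replicate 2 gave 2. Of the WT libraries, leaving out replicate 1 gave 11 calls and leaving out replicate 2 gave 34. With 2 libraries in each group, the cells of a class are not replicates, and fewer dividing cells and less mitotic RNA in each cell cannot be told apart in such sums.

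Over all kept cells, all 42 members were tested and 0 were called, against 0% of 15578 genes. Unadjusted, 0 members had a p under 0.05, against 2.79% of genes, and DESeq2 gave 0 calls and 1 unadjusted p under 0.05. In 7 members both YAP1 heterozygote libraries were above both WT libraries (11.2% of genes), and in 2 they were below (15.2% of genes). The median log2 fold change of YAP1 heterozygote over WT was 0.05 for the members and 0.01 for all genes. No member passed the test, and the largest log2 fold changes were 0.21 for Anln and -0.19 for Cks2.

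In megakaryocyte-like cells, 41 members passed the filter on low counts, all but Ect2, and 0 were called, against 0.0103% of genes. Kif23 was the 1 member with an unadjusted p under 0.05 (2.40% of genes), with a log2 fold change of -0.47 (SE 0.19, adjusted p = 0.999 by edgeR). Its 4 values are given above and do not overlap. In 3 members, Cdk1, Smc4 and Prc1, both YAP1 heterozygote libraries were above WT (13.5% of genes). In 7 members they were below (15.5% of genes): Ccnb2, Cks2, Aurka, Tacc3, Ckap2, Kif23 and Gas2l3. Cdk1 had 139 and 121 CPM in YAP1 heterozygote and 98.4 and 120.0 CPM in WT, with a log2 fold change of 0.25 (SE 0.15, adjusted p = 0.999 by edgeR). Ckap2 had 32.5 and 42.4 CPM in YAP1 heterozygote and 47.7 and 49.98 CPM in WT, with a log2 fold change of -0.36 (SE 0.19, adjusted p = 0.999 by edgeR). The median log2 fold change was -0.09 for the members and -0.01 for all genes. The dividing share of megakaryocyte-like cells was 57.5% ± 2.39 in YAP1 heterozygote and 61.0% ± 4.33 in WT (SD, n = 2 each), and the libraries overlapped (exact two-sided permutation test p = 0.667, where 2 against 2 cannot go below 0.333).

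Other parts of the cell cycle were read from lists of genes outside the members. In megakaryocyte-like cells 0 of 60 genes of DNA replication and S phase were called by edgeR and 6 had an unadjusted p under 0.05 (2.40% of all genes there), with a median log2 fold change of 0.19. Both YAP1 heterozygote libraries were above both WT libraries in 28 of them (13.5% of all genes) and below in 3 (15.5% of all genes). Of 63 other mitosis genes 0 were called and 0 had an unadjusted p under 0.05, with a median of -0.01. The median of the replication genes thus lay above that of the members, with no gene past the test. Of 16 G1 genes 5 were above and 0 below, and of 7 CDK inhibitors and pocket proteins 1 was above and 0 below, to be read against the same 13.5% and 15.5% of all genes. Over the 15 classes, 0 of 779 tests of the other mitosis genes, 0 of 771 of the replication genes and 0 of 201 of the G1 cyclins, CDKs and E2Fs were called. Of 103 tests of CDK inhibitors and pocket proteins, 1 was called: Cdkn1a (p21, a CDK inhibitor induced by p53) in the NK cell or ILC-like class, with a log2 fold change of -2.67 (SE 0.42, adjusted p = 0.0051 by edgeR). DESeq2 gave it an adjusted p of 0.0825, and without WT replicate 1 edgeR gave a log2 fold change of -2.22 (adjusted p = 0.0100).

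In the basophil or mast cell-like class all 42 members were tested and 0 called (0% of genes), while 13 had an unadjusted p under 0.05, against 6.71% of genes. In 24 members both YAP1 heterozygote libraries were above WT (29.2% of genes), and in 1, Cks2, they were below (11.0% of genes). The median log2 fold change was 0.38 for the members and 0.01 for all genes. Without WT replicate 1 the members' median was 0.07 and 5 had an unadjusted p under 0.05. Mki67 had 585 and 612 CPM in YAP1 heterozygote and 308 and 463 CPM in WT, with a log2 fold change of 0.53 (SE 0.18, adjusted p = 0.614 by edgeR). Nuf2, a subunit of the Ndc80 complex of the kinetochore, had the lowest p of the members that were higher, with 0.84 (SE 0.22, adjusted p = 0.409 by edgeR). The dividing share of this class was 33.6% ± 1.06 in YAP1 heterozygote and 24.4% ± 7.26 in WT (SD, n = 2 each). Dividing cells were called by the same members, so this share is no separate support. The lowest share was that of WT replicate 1, and without it the difference of 9.19 percentage points became 4.06. Without WT replicate 2 edgeR called 10 members here, Mki67, Hmmr, Anln and Cks2 among them.

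The plasma cell-like class had very few cells, and 17 members passed the filter there. Of these, 0 were called, against 0.266% of genes, and 11 had an unadjusted p under 0.05, against 5.90% of genes. In 15 both YAP1 heterozygote libraries were below WT (37.6% of genes), and in 0 above (4.64% of genes). The median log2 fold change was -1.75 for the members and 0.02 for all genes. Cdk1 had the largest of them, at -3.48 (SE 0.61, adjusted p = 0.0690 by edgeR). The class held 26 and 37 cells in YAP1 heterozygote and 21 and 77 in WT, and 294 and 84 member UMIs in YAP1 heterozygote against 478 and 1917 in WT. A member could pass the filter through the WT libraries alone, which favours members high in WT. The number of members below and the median are thus no support for a difference. With 1 and 0 dividing cells in YAP1 heterozygote and 3 and 8 in WT at 2000 UMIs, these values rest on a handful of cells. Leaving out YAP1 heterozygote replicate 1 gave 16 calls in this class and leaving out WT replicate 1 gave 5, Cdk1 in both.

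In neutrophil precursor-like cells, the largest dividing class, 0 of 42 members were called (0% of genes) and 2, Anln and Kif20b, had an unadjusted p under 0.05 (4.26% of genes). In 12 both YAP1 heterozygote libraries were above WT (10.0% of genes) and in 2 below (17.2% of genes), with a median log2 fold change of 0.07. In erythroid progenitor-like cells 0 of 42 were called (0% of genes) and 0 had an unadjusted p under 0.05 (3.43% of genes). There 4 were above (15.3% of genes) and 4 below (15.6% of genes), with a median of 0.02. In B cell precursor-like cells 0 of 42 were called (0.0366% of genes) and 0 had an unadjusted p under 0.05 (5.20% of genes), with 4 above (16.5% of genes), 7 below (15.2% of genes) and a median of 0.00. In these 3 classes, which held most of the dividing cells, the largest log2 fold change of a member in either direction was -0.25, of Gas2l3 in erythroid progenitor-like cells.

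In HSPC-like cells 0 of 42 members were called (0.0639% of genes), 1, Cks2, had an unadjusted p under 0.05 (4.76% of genes), 11 were above (17.6% of genes) and 3 below (13.4% of genes). In monocyte-like cells 0 of 42 were called (0% of genes), 0 had an unadjusted p under 0.05 (5.11% of genes), 2 were above (13.6% of genes) and 7 below (18.7% of genes). In conventional dendritic cell-like cells 0 of 42 were called (0% of genes), 1, Tpx2, had an unadjusted p under 0.05 (2.91% of genes), 0 were above (12.7% of genes) and 6 below (16.6% of genes). Tpx2, which activates Aurora A on the spindle, had a log2 fold change of -0.33 there (SE 0.14, adjusted p = 1.000 by edgeR). In plasmacytoid dendritic cell-like cells 0 of 42 were called (0% of genes), 4 had an unadjusted p under 0.05 (6.22% of genes), 4 were above (16.5% of genes) and 7 below (19.1% of genes). In HSPC-like cells the members above WT made up a larger share than among all genes, and in conventional dendritic cell-like cells none were above.

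In the mostly resting classes fewer members passed the filter. In mature neutrophil-like cells 0 of 40 were called (0% of genes), 3 (Cks2, Ckap2l and Mki67) had an unadjusted p under 0.05 (5.43% of genes), 1 was above (13.8% of genes) and 19 were below (18.1% of genes), with a median log2 fold change of -0.26. In B cell-like cells 0 of 35 were called (0% of genes), 1, Cenpa, had an unadjusted p under 0.05 (4.90% of genes), 1 was above (17.9% of genes) and 3 were below (14.1% of genes). In T cell-like cells 0 of 34 were called (0.153% of genes), 3 had an unadjusted p under 0.05 (5.64% of genes), 3 were above (17.3% of genes) and 4 below (17.3% of genes). Among mature neutrophil-like, B cell-like and T cell-like cells, the mature neutrophil-like class had the largest excess of members on 1 side. WT replicate 1 has its extra cluster in that class, and the part of that cluster in the count was not tested. In the NK cell or ILC-like class 0 of 22 were called (0.445% of genes), 2, Cks2 and Cenpa, had an unadjusted p under 0.05 (6.61% of genes), 0 were above (19.9% of genes) and 1 was below (14.7% of genes). Without WT replicate 2, 14 members were called in this class, where WT replicate 1 had the highest dividing share. In macrophage-like cells 0 of 12 were called (0.298% of genes), 3 had an unadjusted p under 0.05 (6.37% of genes), 7 were above (14.9% of genes) and 0 below (20.6% of genes). This class held 620 and 1125 member UMIs in YAP1 heterozygote, against 266 and 123 in WT. A member could pass the filter through the YAP1 heterozygote libraries alone, which favours members high there. The number of macrophage-like members above is thus no support for a difference.

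**Figure D4:**
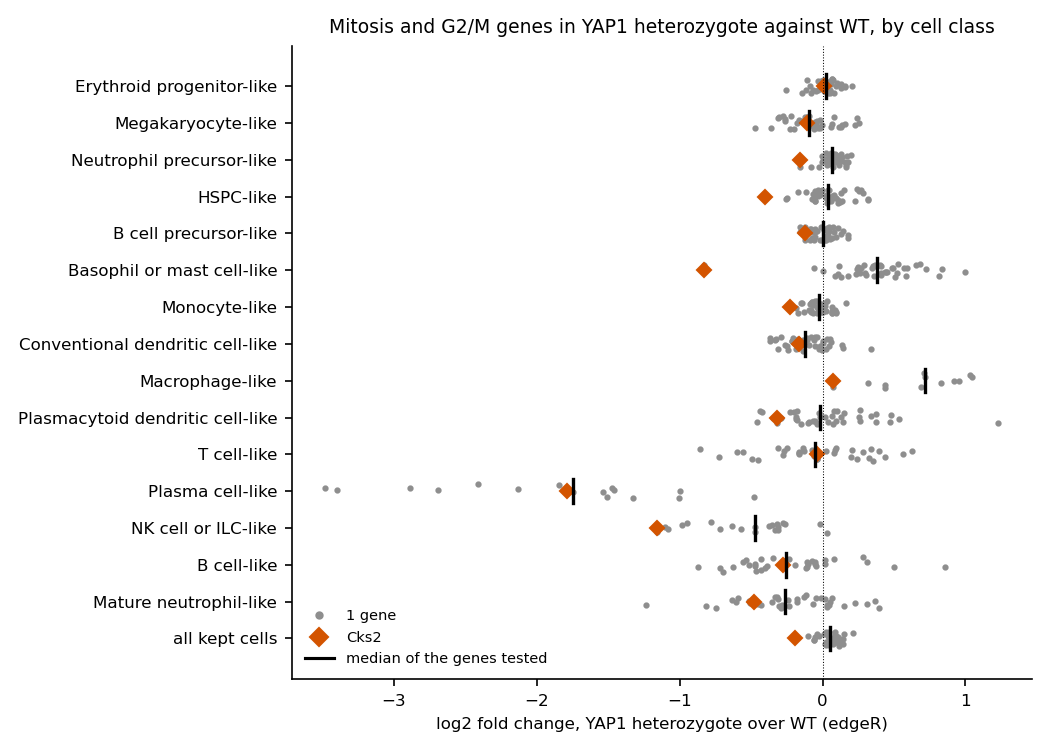
Log2 fold change of YAP1 heterozygote over WT (x axis, edgeR) of every member tested in each class and over all kept cells (y axis), with 1 point per gene, the median as a bar and Cks2 as a diamond. No point passed the adjusted threshold. The medians farthest from 0 are those of plasma cell-like (-1.75), macrophage-like (0.71), NK cell or ILC-like (-0.47) and basophil or mast cell-like cells (0.38). In all but the last of these classes the median covers only the members that passed the filter on low counts. In plasma cell-like and macrophage-like cells that filter favours members high in 1 group, so their medians are no support for a difference. The Cks2 diamond lies left of 0 in 13 of 15 classes.

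Cks2 was lower in YAP1 heterozygote than in WT in more classes than any other member; it was singled out after its values were seen. It lies at chr13:51645232-51650660 on the plus strand (GRCm38). Both YAP1 heterozygote libraries were below both WT libraries in 8 of 15 classes and above in 0. The share of all genes that were below is given with each class above. How many of all genes were below in as many classes was not counted. In basophil or mast cell-like cells Cks2 had 1048 and 1083 CPM in YAP1 heterozygote and 1862 and 1639 CPM in WT, with a log2 fold change of -0.83 (SE 0.14, adjusted p = 0.159 by edgeR). DESeq2 called it there, with an adjusted p of 0.000191. In HSPC-like cells it had 321 and 318 CPM in YAP1 heterozygote and 438 and 402 CPM in WT, with a log2 fold change of -0.41 (SE 0.11, adjusted p = 0.489 by edgeR). In mature neutrophil-like cells, whose 4 values are given above, the log2 fold change was -0.48 (SE 0.13, adjusted p = 0.690 by edgeR). In basophil or mast cell-like and HSPC-like cells the gap between the groups was wider than the gap within either group, while in mature neutrophil-like cells it was narrower than the gap between the WT libraries.

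In NK cell or ILC-like cells Cks2 had 59.1 and 59.8 CPM in YAP1 heterozygote and 177 and 77.4 CPM in WT, with a log2 fold change of -1.16 (SE 0.33, adjusted p = 0.204 by edgeR). In plasma cell-like cells it had 30.5 and 15.9 CPM in YAP1 heterozygote and 124 and 76.1 CPM in WT, with a log2 fold change of -1.79 (SE 0.34, adjusted p = 0.101 by edgeR). In neutrophil precursor-like cells the log2 fold change was -0.15, in B cell precursor-like cells -0.12 and in megakaryocyte-like cells -0.11, again with no overlap of the groups. In erythroid progenitor-like cells, the class with the highest dividing share, it had 587 and 645 CPM in YAP1 heterozygote and 586 and 638 CPM in WT, which overlapped. Over all kept cells the log2 fold change was -0.19 (SE 0.08, adjusted p = 0.999 by edgeR). The classes come from the same 4 libraries, so their like direction is not independent. Other members were also singled out after their values were seen, with no count over all genes beside them. Anln had a positive log2 fold change in 10 of 10 classes where it was tested and Racgap1 a negative one in 12 of 13.

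Without WT replicate 1, the library that stood apart, the log2 fold change of Cks2 was -0.71 in basophil or mast cell-like cells (adjusted p = 0.0696), -0.36 in HSPC-like cells (adjusted p = 0.998), -0.37 in mature neutrophil-like cells (adjusted p = 0.998) and -0.16 over all kept cells (adjusted p = 1.000), all by edgeR with the 1 WT library left assumed to vary like the others. It was -0.45 in NK cell or ILC-like cells (adjusted p = 1.000 by edgeR), where WT replicate 1 had the highest value. It was -1.56 in plasma cell-like cells, where Cks2 was then called (adjusted p = 0.0423 by edgeR). Without WT replicate 2, edgeR called Cks2 in basophil or mast cell-like cells (-0.95, adjusted p = 0.00124), in NK cell or ILC-like cells (-1.59, adjusted p = 6.155e-06), in mature neutrophil-like cells (-0.58, adjusted p = 0.0268) and in plasmacytoid dendritic cell-like cells (-0.58, adjusted p = 0.0171). In macrophage-like cells the value was 1.14 without WT replicate 1, against 0.07 with it. Leaving out either WT library did not turn the sign of Cks2 in the 5 classes with an unadjusted p under 0.05.

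**Figure D5:**
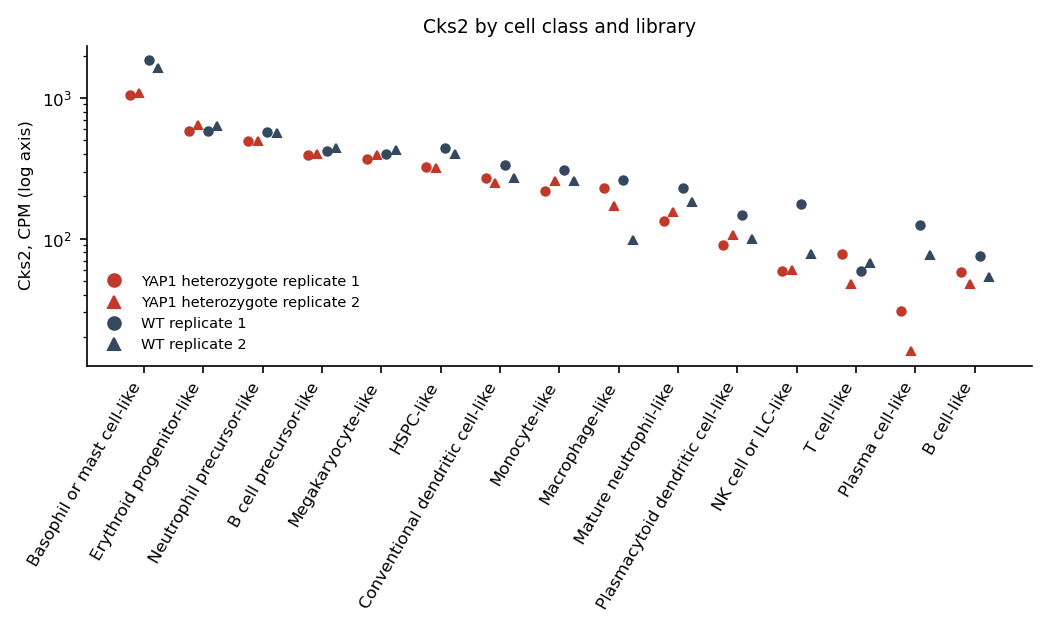
Cks2 (y axis, CPM on a log axis) in 15 cell classes (x axis, ordered by mean level), with 1 point per library. Basophil or mast cell-like cells lie highest, at 1048 and 1083 CPM in YAP1 heterozygote and 1862 and 1639 CPM in WT, while the points of the 2 groups mix in erythroid progenitor-like cells.

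The share of dividing cells was compared between the genotypes by permuting 2 libraries against 2, which cannot reach the threshold. The YAP1 heterozygote and WT libraries did not overlap in 5 of 15 classes (33.3%): the share was higher in YAP1 heterozygote in basophil or mast cell-like cells, and lower in B cell precursor-like, conventional dendritic cell-like, plasmacytoid dendritic cell-like and plasma cell-like cells. Each of these had p = 0.333 in the exact two-sided permutation test, the smallest that 2 against 2 can give, and 0.833 adjusted over the 15 classes. With no group difference, 33.3% of classes are expected not to overlap, and 5 of 15 does not exceed that. Over all kept cells 25.0% and 24.1% were dividing in YAP1 heterozygote, against 26.6% and 24.3% in WT. The summed level of the 42 members over all kept cells was 4327 and 4329 CPM in YAP1 heterozygote and 4049.6 and 4499 CPM in WT, with the lowest value again in WT replicate 1. Without thinning, 38.9% and 35.1% of YAP1 heterozygote cells and 40.2% and 38.9% of WT cells had at least 3 members.

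Overlapping genes limit a few of these values. The 42 members lie on 17 chromosomes, and 9 of them overlap a gene on the opposite strand in GENCODE release M21 (GRCm38), among them Ccna2 with Exosc9, Cdc20 with Elovl1, Nusap1 with Oip5, Tacc3 with Tmem129 and Prc1 with Rccd1. Anln overlaps Gm48646 on its own strand, which had 0.229 CPM in megakaryocyte-like cells. Whether the counting used strand is not given in the sources used here, and without it the reads of such pairs cannot be told apart. Ect2, Kif23 and Cks2 are not among these genes.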

How the data were processed

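The files hold UMI counts per gene and cell barcode of 4 libraries; per the file headers, the deposited counts came from Cell Ranger 5.0.0. Cell Ranger 3.0.0, Seurat 4.3.0 and the mouse build GRCm38 (mm10) are named in the submitters' processing notes. Barcodes with at least 500 UMIs, at least 200 genes and a mitochondrial share of at most 10% were kept, and Scrublet in scanpy 1.11.5 removed between 3.52% and 4.86% of each library as doublets. Kept cells had a median of 5511 to 6748 UMIs. Cells were clustered (Leiden, resolution 1, 30 principal components) without cell cycle, sex-linked and variable antigen receptor genes, and 15 classes with at least 20 cells in every library were compared. Pro-B and pre-B clusters were joined after the data were seen. For each class the counts of a library's cells were added up, and these sums were tested with edgeR 4.0.16 (quasi-likelihood, TMM, filterByExpr), with DESeq2 1.42.0 as an alternative, at a Benjamini-Hochberg adjusted p of 0.05 over all tested genes of a class. Shares of dividing cells were compared by exact permutation of the 4 libraries, and Wilson 95% intervals cover counting error only. The labels number the replicates 1 and 2 in both groups but do not say that a number marks shared animals, litters or days, so the main fit has no block. Nothing says that the libraries of a group are separate animals other than their sex-linked genes, so p-values measure the spread between these libraries. Named with values were the 2 members of each role highest over all cells and in megakaryocyte-like cells, the highest member of each class, the 5 genes most like the members, and list genes past the threshold; other names were chosen after their values were seen. The tests were checked on simulated counts. The members, gene lists and classes were chosen with earlier results of these data known.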

Additional observations from a re-analysis of the deposited data

Results flagged for a closer look

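The share of dividing cells, YAP1 heterozygote minus WT, had both libraries of 1 group outside the other group in 5 of 15 classes. With 2 libraries against 2 and no group difference, such a split is expected at a rate of 0.333. The count of 5 of 15 does not exceed that rate. The share was 9.19 percentage points higher in YAP1 heterozygote in basophil or mast cell-like cells, on 256 and 137 cells in YAP1 heterozygote and 286 and 200 cells in WT. The difference was -1.92 points in B cell precursor-like cells, -6.92 points in conventional dendritic cell-like cells, -1.78 points in plasmacytoid dendritic cell-like cells and -10.8 points in plasma cell-like cells. That these differences point in opposite directions between classes was not tested, and the exact permutation test within each class gave 0.333, the smallest p that 2 libraries against 2 allow. Without WT replicate 1, the library with a cluster of its own, the difference was 4.06 points in basophil or mast cell-like cells, -0.598 in conventional dendritic cell-like, -2.14 in B cell precursor-like, -1.91 in plasmacytoid dendritic cell-like and -8.73 in plasma cell-like cells. The differences in basophil or mast cell-like and conventional dendritic cell-like cells thus moved with that library.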

How the results depend on the processing

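The count of members called in a class was 0 with RLE factors, with doublets kept and with cycle genes in the clustering. It was 1 with DESeq2, 22 with no filter on low counts, 12 with the replicate block and 4 without the top cell of each gene. Leaving out 1 library gave 2 to 34 calls. With the replicate block, which takes the replicate number as paired (same-numbered libraries correlated at 0.0582 to 0.494 over classes, 2 pairs), the 12 calls were Cks2 in 5 classes (adjusted p by edgeR 0.00092 to 0.0162), Top2a in B cell-like cells, Mki67 and Ckap2l in mature neutrophil-like cells, and Cdk1, Birc5, Top2a and Mki67 in plasma cell-like cells. The numbers coincide with the expression of Ddx3y or Xist. Over all kept cells 0 members were called under every alternative run.

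The median dividing share of megakaryocyte-like cells, 58.6% as reported, was 69.4% with at least 2 members, 44.5% with at least 5, 42.2% at 1000 UMIs, 76.6% at 4000 UMIs and 93.9% without thinning, and 58.0% to 59.2% with 1 library left out. In these settings erythroid progenitor-like cells ranked first and the megakaryocyte-like cells at rank 2 or 3. The difference of B cell precursor-like cells turned to 1.18 points without thinning. That of neutrophil precursor-like cells, -2.31 points as reported, turned to 3.63 with doublets kept (no overlap, exact permutation p = 0.333) and to 0.705 without WT replicate 1. That of megakaryocyte-like cells, -3.58 points as reported, turned to 0.1996 at 4000 UMIs. That of all kept cells, -0.844 points as reported, ran between -1.97 and 0.285 with 1 library left out, turning without WT replicate 1. Without that library the differences of NK cell or ILC-like, B cell-like, monocyte-like and erythroid progenitor-like cells turned too. The log2 ratio of Ect2 in megakaryocyte-like cells to the other classes ran between -4.54 and -3.48, and that of Ckap2l between 1.77 and 1.97, under alternatives chosen after the data were seen. The causes of these shifts were not tested.

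Depth limits Ect2 in megakaryocyte-like cells (22 UMIs), plasma cell-like cells and macrophage-like cells most. With 2 libraries a group, which also differ in sex-linked genes, a genotype effect cannot be told apart from a difference between animals.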
